A study of Homo sapiens with 2 samples.

Results

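Interleukins are secreted signalling proteins of leukocytes, and interleukin receptors are the membrane chains that bind them. The genes described here were all those whose name in the array files begins with IL and a digit, leaving out IL4I1, which encodes an amino acid oxidase, and IL8, which encodes a chemokine. They came to 88 genes among the 43317 gene and transcript names on the array, and 123 of its 58201 probes. By role, 40 of the 88 encode ligands, 40 encode receptor chains, 4 encode antagonists or soluble decoys (IL1RN, IL36RN, IL18BP and IL22RA2) and 4 are antisense transcripts.

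The genes were measured in R-HL60, a cytarabine-resistant line raised from HL60 by continuous exposure to rising concentrations of the drug, and in untreated parental HL60. HL60 was established from acute myeloid leukaemia and resembles promyelocytes, and the nucleoside analogue cytarabine blocks DNA synthesis. Each line gave 1 Agilent one-colour array of labelled total RNA, and both lines share the same growth medium and the same origin. R-HL60 is a single derived line, and the sources used here do not say whether cytarabine was in the medium at harvest. With 1 array per line there was no spread between cultures to set a difference against, so no test was made, and the line and the array cannot be told apart. These are bulk samples, in which fewer cells that express a gene and less RNA per cell cannot be told apart either.

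As background, interleukins act in families that share receptor chains. The IL-1 family signals through Toll-like receptor adaptors to NF-kB, and its best known member is made as a precursor that caspase 1 cleaves. Most other families signal through Janus kinases and STAT factors: the common gamma chain serves lymphocyte growth factors, gp130 serves the IL-6 group, and a ligand-binding chain pairs with IL10RB for IL-10, a cytokine that restrains activated myeloid cells. The IL-17 family uses receptors of its own.

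A probe was taken as measured where its signal exceeded the median of its array, called the floor here, at 32.8 in R-HL60 and 30.7 in HL60. Differences are log2 of the signal, scaled to the 75th percentile of each array (294 in R-HL60 and 292 in HL60), R-HL60 minus HL60, and a gene with several probes is given by its brightest one. Of the 88 members 43 were above the floor on both arrays, 6 in R-HL60 only, 2 in HL60 only, and 37 on neither. That is 58.0% above it on at least 1 array, against 54.4% of all names. By role, 25 of 40 receptor genes and 20 of 40 ligand genes were above the floor on at least 1 array, and so were all 4 antagonist genes and 2 of 4 antisense transcripts. Where a gene was above the floor on 1 array only, only a lower limit of the difference is given, with the words at least.

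Interleukin and receptor genes differed little between the lines, with a few higher in R-HL60. Of the 51 genes above the floor on at least 1 array, only IL10RA counted as at least 2-fold higher. It encodes the ligand-binding chain of the IL-10 receptor. Of all 23547 genes so measured, 0.786% did. None of the 51 counted as at least 2-fold lower, where 0.297% of all genes did. A bound was counted at its limit, here and at 1.5-fold, so these are lowest counts. IL6, with 44.0 in R-HL60 and 12.9 in HL60, may also lie past 2-fold. At 1.5-fold, 5 of 51 were higher (IL10RA, IL1B, IL1F10, IL33 and IL16), where 3.53% of all genes were. At the same threshold 0 of 51 were lower, where 1.38% of all genes were. IL33 and IL1F10 are dim, and with 50 units added to every signal they came to 1.29-fold and at least 1.25-fold. The median difference of the 51 was 0.04, against -0.03 over all genes with a difference or bound, and 29 were above 0 against 22 below, or 56.9% above 0 against 43.7% of all genes. With the arrays centred on their medians instead, which lowers every difference alike, 22 were above and 29 below 0. That is 43.1% above 0 against 28.7% of all genes, and the median was -0.05 against -0.12 over all genes. Other scalings brought members and all genes closer: 56.9% against 47.2% above 0 under quantile scaling, and 56.9% against 51.2% under loess scaling. Of the 43 measured on both arrays, 39 lay within 1.5-fold, or 90.7%, against 95.6% of all genes measured on both.

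**Figure D1:**
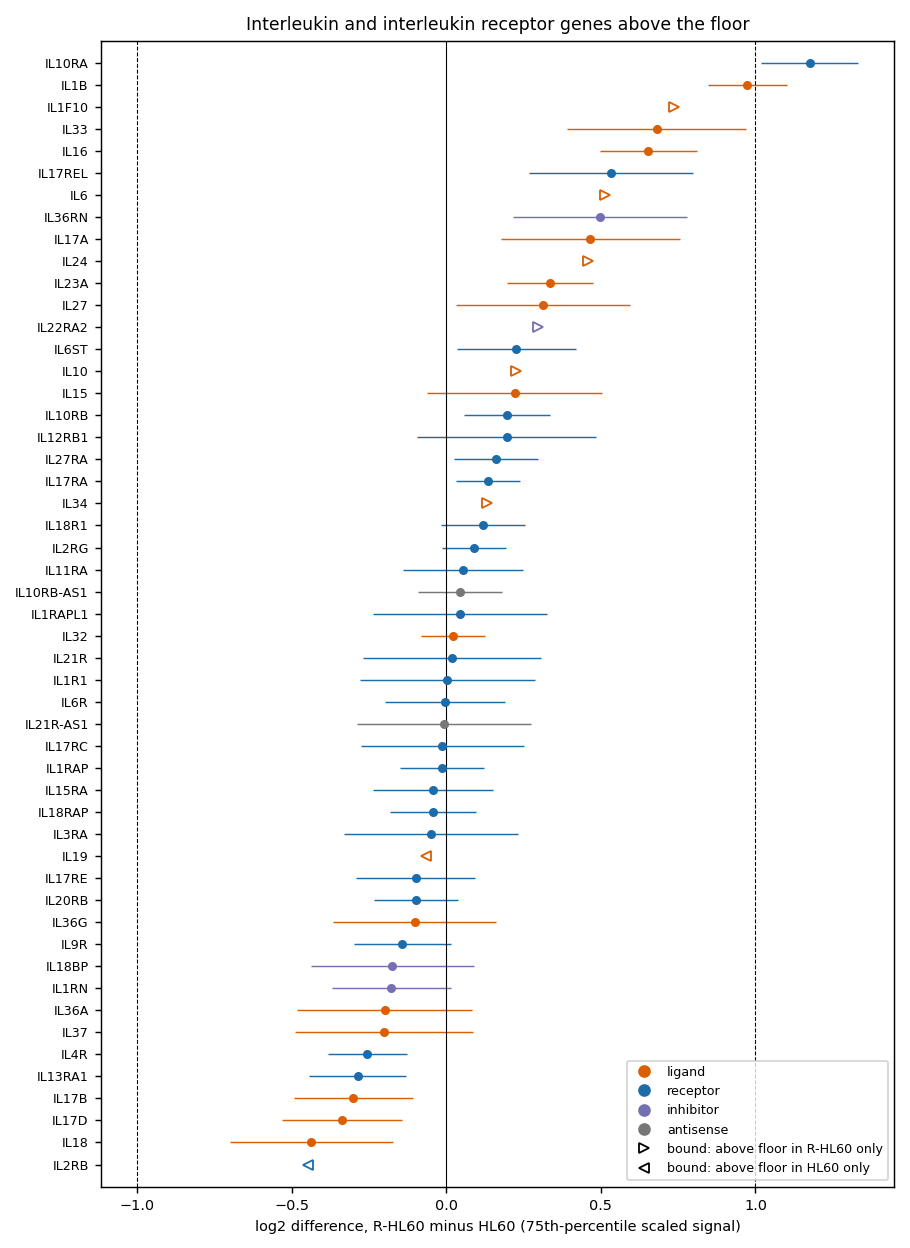
Log2 difference (x axis, R-HL60 minus HL60, scaled signal) of the 51 interleukin and receptor genes above the floor on at least 1 array, coloured by role. Filled points were measured on both arrays, and bars are the probe-to-probe SD of genes of like brightness and are no error between cultures. Open triangles are bounds, drawn at the lower limit of the difference, and dashed lines mark 2-fold. IL10RA alone is drawn past the right line.

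The precision that can be given is that between probes of 1 gene. Over 4721 genes with several measured probes the log2 differences of a gene's probes had an SD of 0.19, ranging by brightness from 0.28 in the dimmest of 10 brightness bins to 0.10 in the brightest. This leaves out the spread between cultures and arrays. Of the 51 measured members 33 had 1 probe on the array. Some of the others, such as IL1R1, IL36RN and IL6, had further probes but only 1 above the floor on either array.

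IL10RA had a signal of 503 in R-HL60 and 221 in HL60, a 2.26-fold difference (log2 1.18), where genes of like brightness had a probe SD of 0.16. It rested on 1 probe, and 100 of the genes measured were higher in R-HL60 by more than IL10RA. In the authors' deposited table of normalized intensities it stood at 504 in R-HL60 and 223 in HL60. The second chain, IL10RB, which the receptors for IL-22 and the lambda interferons also use, had 2225 in R-HL60 and 1931 in HL60, a log2 difference of 0.20. Both chains were above the floor in both lines, but only the ligand-binding one differed by more than 1.5-fold.

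IL1B, which encodes the precursor of the inflammatory cytokine IL-1 beta, followed with 4383 in R-HL60 and 2219 in HL60, or 1.96-fold (log2 0.97, probe SD 0.13 at this brightness). It lies at the 2-fold line. In the authors' deposited table its values were 4470 in R-HL60 and 2185 in HL60, or 2.05-fold. Quantile normalization, which that table nearly repeats, and loess normalization also placed it past 2-fold. Of the genes measured, 200 were higher in R-HL60 by more than IL1B.

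The stretches of 250 bases upstream of the annotated start of 4 genes are shown. These genes had higher signals in R-HL60 and have 1 start each in the annotation used. They were picked and are no ranking: members with larger differences than IL23A, such as IL33 and IL17A, are not shown. Their matches therefore do not describe the members as a set. IL10RA and IL1B differed most of the members measured on both arrays. IL6 is a ligand above the floor in R-HL60 only, and IL23A is the cytokine subunit gene described below. The sequences come from RefSeq on GRCh38.p14 and are written 5′ to 3′ on the gene's strand. IL10RA is taken from chr11:117989695-117989944 (plus strand), IL1B from chr2:112836780-112837029 (minus strand), IL6 from chr7:22726950-22727199 (plus strand) and IL23A from chr12:56338634-56338883 (plus strand). Capitals mark matches to 3 motifs, searched on both strands: the NF-kB consensus, the STAT-type motif TTCNNNGAA and the AP-1 motif TGANTCA.
IL10RA: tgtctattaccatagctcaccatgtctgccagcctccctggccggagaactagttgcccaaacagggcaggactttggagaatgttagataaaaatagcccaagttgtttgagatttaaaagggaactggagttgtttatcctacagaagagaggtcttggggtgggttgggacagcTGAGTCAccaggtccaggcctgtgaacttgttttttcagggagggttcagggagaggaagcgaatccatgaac
IL1B: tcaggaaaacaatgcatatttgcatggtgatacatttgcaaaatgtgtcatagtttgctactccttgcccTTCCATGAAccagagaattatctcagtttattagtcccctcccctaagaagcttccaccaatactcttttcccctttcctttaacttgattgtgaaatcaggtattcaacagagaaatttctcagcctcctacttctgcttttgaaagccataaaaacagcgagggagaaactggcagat
IL6: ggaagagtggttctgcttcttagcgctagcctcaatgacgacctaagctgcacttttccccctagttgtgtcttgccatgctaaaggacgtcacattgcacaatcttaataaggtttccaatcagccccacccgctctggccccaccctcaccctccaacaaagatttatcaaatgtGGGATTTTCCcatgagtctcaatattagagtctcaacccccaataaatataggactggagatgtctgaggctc
IL23A: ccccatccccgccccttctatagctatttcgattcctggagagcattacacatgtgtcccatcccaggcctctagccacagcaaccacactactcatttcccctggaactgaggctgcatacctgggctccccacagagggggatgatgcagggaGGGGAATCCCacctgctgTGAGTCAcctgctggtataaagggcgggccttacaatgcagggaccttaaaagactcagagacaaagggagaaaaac

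In these windows IL10RA held an AP-1 match at bases 73 to 67 before the start, IL1B a STAT-type match at bases 180 to 172, and IL6 an NF-kB match at bases 73 to 64. IL23A held both an NF-kB match at bases 95 to 86 and an AP-1 match at bases 77 to 71. No match overlapped another. Of 35116 windows of all genes, 9.96% held the NF-kB consensus, 6.57% the STAT-type motif and 6.57% the AP-1 motif. Of the 111 windows of the 70 members found in the table, 14.4% held the NF-kB consensus, 7.21% the STAT-type motif and 16.2% the AP-1 motif, with some windows of 1 gene overlapping. A match is a run of letters and was not tested as a binding site, and other elements of these genes lie outside the windows.

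Among IL-1 family ligands, higher and lower genes were mixed: of 7 above the floor on at least 1 array, 3 had higher and 4 lower signals in R-HL60. Beside IL1B, the nuclear alarmin gene IL33 had 76.7 in R-HL60 and 47.6 in HL60, or 1.60-fold. IL1F10, which encodes IL-38, had 51.4 in R-HL60 and lay below the floor at 27.9 in HL60, or at least 1.67-fold higher. Both are dim genes, and with 50 units added to every signal they came to 1.29-fold and at least 1.25-fold. IL18, another ligand that caspase 1 matures, ran the opposite way to IL1B, with 69.0 in R-HL60 and 92.8 in HL60, or 1.35-fold lower.

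The remaining IL-1 family ligands were closer to equal. IL37, a restraining member, had 55.2 in R-HL60 and 63.1 in HL60. IL36A had 41.6 in R-HL60 and 47.6 in HL60, and IL36G had 79.4 in R-HL60 and 84.8 in HL60. These 3 differences, from -0.20 to -0.10, were smaller than the probe SD at their brightness. IL1A and IL36B were below the floor on both arrays.

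The natural antagonists of the family did not share 1 direction. IL1RN, which encodes the receptor antagonist of IL-1, had 211 in R-HL60 and 237 in HL60 (log2 -0.18), and its second probe gave -0.12. IL18BP, a secreted decoy for IL-18, had 68.1 in R-HL60 and 76.5 in HL60 (-0.18). IL36RN, the antagonist of the IL-36 receptor, had 43.6 in R-HL60 and 30.8 in HL60 (0.50), and the HL60 value was just above the floor. On chromosome 2 the genes IL1A, IL1B, IL37, IL36G, IL36A, IL36B, IL36RN, IL1F10 and IL1RN follow each other among the members in RefSeq order, so IL1B lies between a gene below the floor and one with a lower signal in R-HL60.

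The IL-1 receptor family was nearly equal in both lines. IL18R1 had 1110 in R-HL60 and 1017 in HL60, and its partner IL18RAP had 2259 in R-HL60 and 2317 in HL60. IL1RAP, the accessory chain shared by several receptors of the family, had 718 in R-HL60 and 720 in HL60. IL1R1, which binds IL-1 itself, was close to the floor at 36.3 in R-HL60 and 36.0 in HL60. IL1RAPL1, best known from synapses, was also at the floor, with 34.9 in R-HL60 and 33.7 in HL60. The 5 differences ran from -0.04 to 0.12. IL1R2, IL1RL1, IL1RL2 and IL1RAPL2 were below the floor on both arrays.

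**Figure D2:**
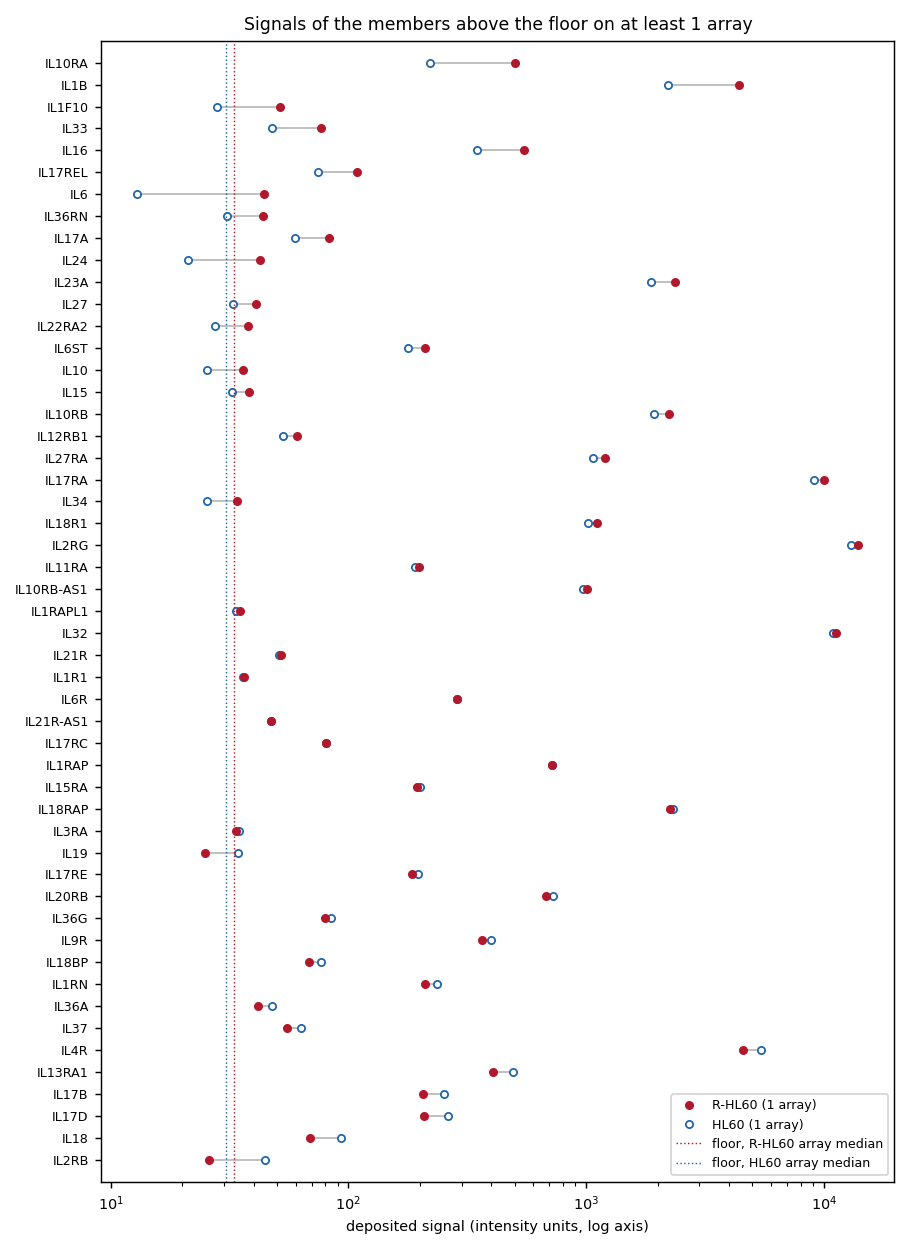
Deposited signal (x axis, log scale) of the 51 genes above the floor on at least 1 array, with R-HL60 as filled red and HL60 as open blue points, 1 array each, in the order of their difference from top to bottom. Dotted lines mark the floors of 32.8 in R-HL60 and 30.7 in HL60; 39 of the 43 genes measured on both arrays lie within 1.5-fold, and the points of genes such as IL6, IL24 and IL1F10 straddle the floors. Signals of different genes come from different probes and are not comparable.

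In the IL-10 family the ligands were at the edge of measurement. IL10 had 36.1 in R-HL60 and 25.5 in HL60, or at least 1.17-fold higher, and IL24 had 42.3 in R-HL60 and 21.1 in HL60, or at least 1.37-fold higher. IL19 was above the floor in HL60 only, with 24.9 in R-HL60 and 34.2 in HL60, or at least 1.05-fold lower. The decoy receptor gene IL22RA2, whose product binds IL-22 in solution, had 37.9 in R-HL60 and 27.6 in HL60, or at least 1.23-fold higher. IL20RB, a chain of the receptors for IL-19, IL-20 and IL-24, had 680 in R-HL60 and 724 in HL60 (-0.10). IL20, IL22, IL26, IL20RA and IL22RA1 were below the floor on both arrays.

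Of the gp130 group, the ligand IL6 was above the floor in R-HL60 only. It had 44.0 in R-HL60 and 12.9 in HL60, or at least 1.43-fold higher against the floor, and at least 1.16-fold with 50 units added. A lower floor at the 40th percentile raised the bound to 1.41 on the log2 scale. Its second probe was below the floor on both arrays. IL27, a subunit of IL-27, was dim with 40.7 in R-HL60 and 32.5 in HL60 (0.31).

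The receptors of this group differed less. IL6R, the ligand-binding chain for IL-6, had 287 in R-HL60 and 286 in HL60. IL27RA had 1206 in R-HL60 and 1073 in HL60 (0.16), and IL11RA had 198 in R-HL60 and 190 in HL60 (0.05). IL6ST, which encodes gp130 itself, had 210 in R-HL60 and 178 in HL60 on its brightest probe (0.23). Its 4 probes above the floor on both arrays ran from -0.16 to 0.75, on either side of 0. Other probes were above it in HL60 only, 1 with 30.2 in R-HL60 and 38.4 in HL60 and 1 with 32.2 and 37.9. The mean of all IL6ST probes gave 0.02. IL11, IL31 and IL31RA were below the floor on both arrays.

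In the IL-12 family, IL23A, the subunit particular to IL-23, had 2374 in R-HL60 and 1873 in HL60, or 1.26-fold (log2 0.33, probe SD 0.14 at this brightness). IL12B, whose product pairs with it, was below the floor on both arrays, as was IL12A. The shared receptor chain IL12RB1 had 61.0 in R-HL60 and 53.0 in HL60 (0.20), while its partners IL12RB2 and IL23R were below the floor on both arrays.

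Genes of the common gamma chain group, with IL13 and its receptors, had differences from a bound of -0.45 to 0.22 on the brightest probe. The chain itself, IL2RG, had 13994 in R-HL60 and 13085 in HL60, and its second probe gave the same log2 difference within 0.01. IL4R, the binding chain for IL-4, had 4586 in R-HL60 and 5445 in HL60 (-0.26, probe SD 0.13). IL13RA1, which joins IL4R in the receptor for IL-13, had 405 in R-HL60 and 492 in HL60 (-0.29), but its second probe gave 0.11. IL2RB, which serves IL-2 and IL-15, was above the floor in HL60 only, with 25.9 in R-HL60 and 44.5 in HL60, or at least 1.36-fold lower.

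The other chains of this group were within 0.15 on the log2 scale. IL9R had 364 in R-HL60 and 400.0 in HL60 (-0.14), and pseudogene copies that its probe may also bind make this value uncertain. IL21R had 51.8 in R-HL60 and 50.8 in HL60. Among the ligands only IL15 was measured, with 38.0 in R-HL60 and 32.5 in HL60 (0.22), less than the probe SD of 0.28 there. IL2, IL4, IL7, IL9, IL13, IL21, IL2RA, IL7R and IL13RA2 were below the floor on both arrays. In the common beta chain group IL3RA (CD123) had 33.6 in R-HL60 and 34.7 in HL60, at the floor, and IL3, IL5 and IL5RA were below it.

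IL15RA, the chain that presents IL-15, depended on the probe. Its brightest probe had 195 in R-HL60 and 200 in HL60 (-0.04). A second probe had 237 in R-HL60 and 112 in HL60, or 2.11-fold (1.07), and the third had 167 in R-HL60 and 128 in HL60 (0.37). Of the 3 measured probes, 1 was thus past 2-fold and 1 near 0. Counting a gene by any probe above the floor on both arrays, 2 of 43 members (IL10RA and IL15RA) were at least 2-fold higher, where 0.764% of 21854 genes were, and 0 of 43 were 2-fold lower, where 0.288% were. The RefSeq table gives IL15RA 4 annotated starts, and the sources used here do not say which transcript each probe reads.

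IL16, which encodes the precursor of a chemoattractant that binds CD4, split in a like way. Its brightest probe had 548 in R-HL60 and 346 in HL60, or 1.57-fold (0.65), and a second had 97.7 in R-HL60 and 64.7 in HL60 (0.59). The third had 114 in R-HL60 and 115 in HL60 (-0.02). The remaining genes outside the receptor families were IL32, with 11224 in R-HL60 and 10989 in HL60 and both probes at 0.02, and IL34, a ligand of the CSF1 receptor, with 33.8 in R-HL60 and 25.4 in HL60, or at least 1.10-fold higher.

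**Figure D3:**
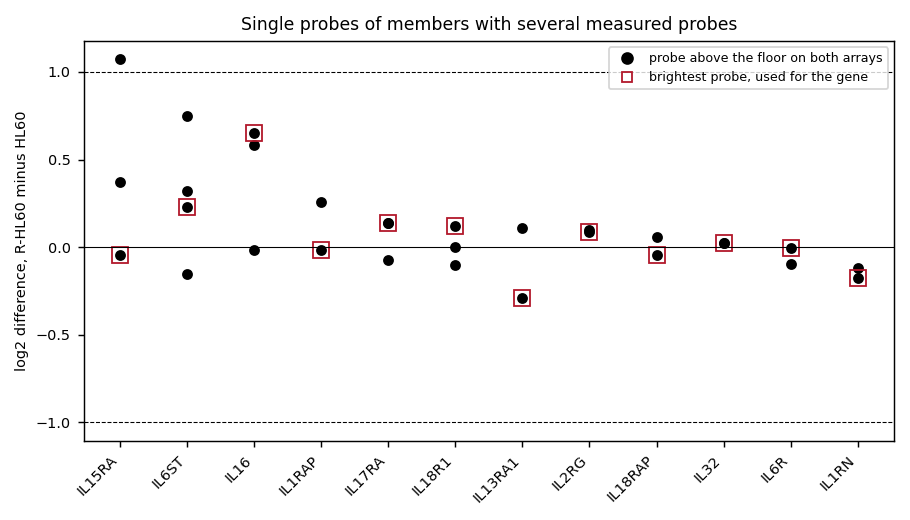
Log2 difference (y axis, R-HL60 minus HL60) of each probe above the floor on both arrays, for the 12 members with more than 1 such probe; the square marks the brightest probe. Probes of IL15RA, IL6ST and IL16 spread over more than 0.6, while those of IL2RG and IL32 coincide.

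Across the 12 members with more than 1 measured probe, the widest ranges between probes were 1.12 for IL15RA, 0.90 for IL6ST and 0.67 for IL16. The narrowest were 0.01 for IL2RG and under that for IL32. IL17RA, the chain shared by receptors of the IL-17 family, had 10032 in R-HL60 and 9079 in HL60 (0.14), with its other probes at 0.14 and -0.07.

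The other IL-17 receptor genes included 1 with a larger difference. IL17REL, named for its likeness to IL17RE, had 109 in R-HL60 and 74.7 in HL60, or 1.45-fold (0.53, probe SD 0.26). IL17RC had 80.2 in R-HL60 and 80.5 in HL60, and IL17RE, which binds IL-17C, had 185 in R-HL60 and 197 in HL60. Of the ligands, IL17A had 82.5 in R-HL60 and 59.4 in HL60 (0.47), whereas IL17B had 207 in R-HL60 and 253 in HL60 (-0.30) and IL17D had 209 in R-HL60 and 263 in HL60 (-0.34). The 3 measured ligands thus lay on both sides of 0. IL17C, IL17F, IL25, IL17RB and IL17RD were below the floor on both arrays.

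Of the antisense transcripts, IL10RB-AS1 had 1007 in R-HL60 and 971 in HL60 (0.05), and IL21R-AS1 had 47.4 in R-HL60 and 47.3 in HL60. IL12A-AS1 and IL21-AS1 were below the floor on both arrays.

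Set against the known make-up of 26 receptor complexes, 13 had every chain above the floor on both arrays. They were the receptors for IL-1, IL-18, IL-10, IL-9, IL-21, IL-3, IL-6, IL-11, IL-27, IL-17A with IL-17F, and IL-17C, and both types of IL-4 receptor. Among them the IL-10 receptor was the only one with a chain past 2-fold. In the other 13 the chain below the floor on at least 1 array was IL1RL1, IL1RL2, IL22RA1, IL20RA, IL2RB, IL7R, IL5RA, IL31RA, IL12RB2, IL23R or IL17RB. The count depends on the floor: IL3RA and IL1R1 lay close to it. With the floor at the 60th percentile these genes and IL21R were no longer measured, and complexes were not recounted at other floors. Lying above an array's median does not show that a protein is made.

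**Figure D4:**
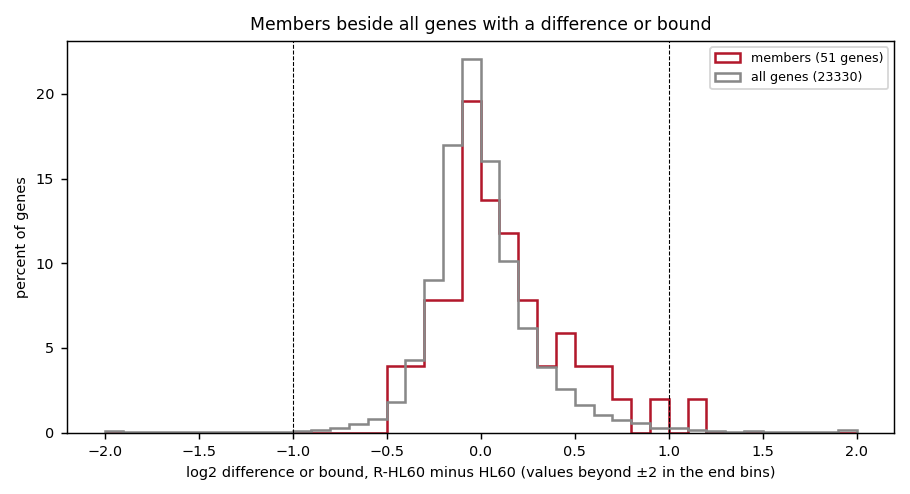
Percent of genes (y axis) in bins of 0.1 of the log2 difference or bound (x axis, R-HL60 minus HL60) for the 51 members in red and the 23330 genes with a difference or bound in grey, with dashed lines at 2-fold. Both peak near 0, and no member lies below -0.45.

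Genes around these pathways were taken from 5 lists. Of the Janus kinase and STAT genes, 10 of 11 were above the floor, 7 with higher and 3 with lower signals in R-HL60, and none passed 2-fold. Over all genes 43.7% were above 0. The split depended on the scaling. With the arrays centred on their medians it was 4 higher and 6 lower, where 28.7% of all genes were above 0. The widest difference was that of JAK3, the kinase that pairs with the common gamma chain, with 3558 in R-HL60 and 2063 in HL60 (0.78). JAK1 and TYK2, which serve the IL-10 receptor, and STAT3, its main STAT factor, lay at 0.05, 0.00 and -0.06. Of 8 feedback genes 7 were measured, with none past 2-fold and SOCS1, an inhibitor of Janus kinases, the widest at 0.58. SOCS3, which IL-10 and IL-6 are known to induce, was below the floor on both arrays.

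Of 9 listed genes that process and release IL-1 family cytokines, 8 were above the floor. All 8 had differences above 0, where 43.7% of all genes did, with a median of 0.52 against -0.03 over all genes. The list was chosen with earlier results of these data known, so these shares describe it and are no test. With the arrays centred on their medians, 7 of the 8 were above 0, where 28.7% of all genes were, and the median was 0.43. The DNA sensor gene AIM2 alone was past 2-fold, with 838 in R-HL60 and 109 in HL60 (2.93). CASP1, whose product cleaves the IL-1 beta precursor, had 1687 in R-HL60 and 907 in HL60 (0.89), and the sensor gene NLRP3 had 2133 in R-HL60 and 1503 in HL60 (0.50). CASP4, CASP5 and the adaptor gene PYCARD were near equal, at 0.10, 0.16 and 0.09. The pore-forming protein gene GSDMD was below the floor on both arrays. CASP1, NLRP3 and other list genes that were neither past 2-fold nor the widest of their list were named after their values were seen.

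Downstream of the IL-1 and IL-17 receptors, all 14 listed genes were above the floor and none passed 2-fold. Their median was -0.09, against -0.03 over all genes, with 5 above and 9 below 0, where 43.7% of all genes were above 0. IRAK2, a kinase of the receptor complex, was the widest with 69.5 in R-HL60 and 36.2 in HL60 (0.93). Its HL60 signal was near the floor, and the probe SD at its brightness was 0.29. The brighter PELI1 had 1509 in R-HL60 and 830 in HL60 (0.85, probe SD 0.14), and MYD88, the adaptor, lay at -0.09. Related cytokine and receptor genes had 14 of 19 members measured, 6 higher and 8 lower, none past 2-fold and a median of -0.08. CSF2RA, the binding chain for GM-CSF, was the widest with 36.3 in R-HL60, near the floor, and 64.0 in HL60 (-0.83). CSF2RB, the common beta chain, lay at 0.02.

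**Figure D5:**
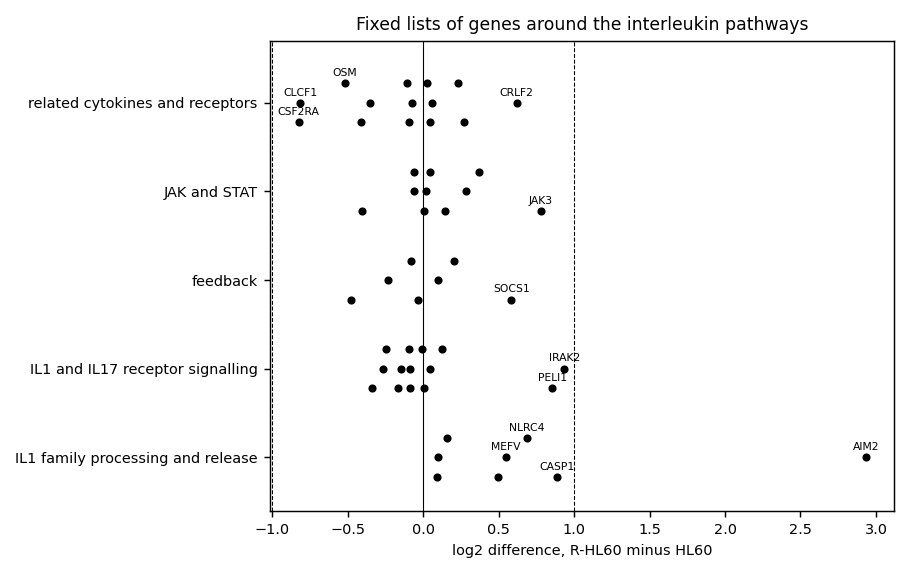
Log2 difference (x axis, R-HL60 minus HL60) of each gene above the floor in the 5 lists around the interleukin pathways, 1 point per gene on its brightest probe, with names at differences of 0.5 or more in either direction. Vertical offsets within a list only separate points; AIM2 at 2.93 is the only gene past the 2-fold lines.

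The labelled cell type was checked with marker lists. All 6 promyelocytic markers were above the floor on both arrays, where 54.4% of all names were above it on at least 1. Lower signals in R-HL60 were seen in 5 of the 6, and in 13128 of the 23330 genes with a difference or bound. ELANE was past 2-fold, with 153 in R-HL60 and 700 in HL60, and PRTN3 had 18984 in R-HL60 and 32955 in HL60 (-0.80). MPO, AZU1 and CD33 were closer to equal, at -0.12, -0.15 and -0.18, and ANPEP was higher in R-HL60 at 0.32. Markers of other lineages were also above the floor in part: 4 of 4 B cell, 3 of 4 T cell, 2 of 3 monocyte, 2 of 2 erythroid markers present by name, and 1 of 3 fibroblast markers. The B cell markers ran from 0.10 to 0.67 and the T cell markers from -0.36 to 0.65, while CD14 and CSF1R were at -0.19 and -0.35. Their part in the interleukin differences was not tested.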

How the data were processed

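RNA of 1 R-HL60 and 1 HL60 sample was read on Agilent one-colour arrays, with Feature Extraction 10.7.3.1 per the submitters' processing notes. Each deposited file pairs gene names with linear intensities, 1 per probe, and the labels do not name a background step. A normalized intensity table deposited by the authors served as an alternative; at each rank its values came within 1.06% of the average of the sorted raw arrays.

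Signals were taken to log2 and scaled here as given with the results, and a bound under 1-fold was dropped. Precision is limited by 1 array per line, so no difference was tested. The steps were checked on simulated data. Of 88 member names 87 matched a current RefSeq symbol. Members, groups and lists were chosen with earlier results of these data known. All members were named, and of each list the genes past 2-fold or the widest difference. The alternatives changed scaling, offset, floor, probe choice and threshold; counting any measured probe and rescaling the gene lists were added after seeing the data. Python 3.11.15, numpy 2.4.6, pandas 2.3.3, statsmodels 0.14.6 and matplotlib 3.10.9 were used.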

Additional observations from a re-analysis of the deposited data

How the results depend on the processing

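IL10RA stayed past 2-fold in every setting that kept this threshold, from 2.03-fold with the offset to 2.30-fold with loess scaling. The count of genes at least 2-fold higher was 2 instead of 1 under quantile scaling, loess scaling and the authors' table, each time through IL1B, whose log2 difference ran from 0.88 to 1.04 over the settings. The authors' table nearly repeats the quantile scaling, with IL1B at 1.03 under each, so these are not separate settings. The count was also 2 with the floor at the 40th percentile, through IL6, and 2 when any measured probe counted, through IL15RA. Without a floor it was 5 higher and 4 lower, 9 in all, the additions resting on signals below the array median. At 1.5-fold the count was 5, and at 3-fold 0. Of those 5, IL33 and IL1F10 came to 1.29-fold and at least 1.25-fold with the offset. The median over members ran from -0.05 (median scaling) to 0.06 (loess scaling). Of 478 single-gene values under the alternatives 25, from 15 genes, moved by more than the probe SD of 0.19. Among them IL15RA came to 0.96 under the mean of all probes, and IL6 came to 1.76 without a floor. Many of the 478 could not move by construction, so this count is no measure of robustness. Median scaling shifts all genes alike by less than the probe SD, and genes with 1 probe keep their value under the mean of all probes. The mean for IL15RA takes in a probe below the floor on both arrays, with 28.9 in R-HL60 and 5.36 in HL60 (2.42). No paired analysis was possible because each line has 1 array. Without replicates or detection flags, differences of dim genes such as IL6, IL24 and IL1F10 are limited to bounds.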
